A study of Drosophila melanogaster with 4 samples.

Results

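The H4K8ac clusters of the euchromatic part of chromosome arm 3L were examined in head nuclei of adult Drosophila melanogaster. A cluster is a region that the authors listed as enriched over input. Clusters were chosen by position alone, as every enriched region on 3L that ended within the first 22900 kb in FlyBase release 5. This gave 1586 of the 8148 clusters of replicate 1, 1596 of the 8140 of replicate 2 and 2077 of the 10650 of the authors' combined replicate set. The series is made up of 2 H4K8ac ChIP-seq libraries and 2 input libraries, with 1 input for each ChIP library. All 4 libraries came from mixed adults of the wild-type strain Oregon-R-modENCODE, grown in population cages, with no treatment and no other tissue. Heads were collected by sieving, so each library pools the nuclei of many animals and of every cell type of the head, and more nuclei with the mark and more mark per nucleus cannot be told apart. The labels do not say whether separate fly collections stand behind the replicates, so their spread may be technical. An exact two-sided sign test over 2 replicates cannot give a p below 0.5, so no test was run and values are described with their SD over the replicates.

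Lysine 8 lies in the N-terminal tail of histone H4. Its acetylation removes the positive charge of the side chain and is recognised by bromodomain proteins, and the mark is generally found at promoters, enhancers and bodies of active genes. Arm 3L is the left arm of chromosome 3, a large autosome. In the release used here its sequence begins at the telomere side and ends in the heterochromatin next to the centromere, where active genes are few. No annotation of release 5 was used, so regions are named by position and no gene is assigned to them.

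Acetylated clusters were spread very unevenly along the arm. Clusters covered 6.51 Mb in replicate 1 and 6.39 Mb in replicate 2, or 28.2% ± 0.356 of its euchromatin (SD, n = 2). In 229 windows of 100 kb the mean coverage of the replicates ran from 0 to 97.1%, with a median of 22.6% and quartiles of 9.75% and 39.9%. The most covered 23 windows held 28.3% of the clustered bases in replicate 1 and 28.7% in replicate 2. The least covered 114 windows held 16.5% and 16.3%. A mean coverage of at least 50%, called dense here, was reached by 34 windows, or 14.8% of all. Coverage under 5%, called sparse, was seen in 42 windows, or 18.3%.

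**Figure D1:**
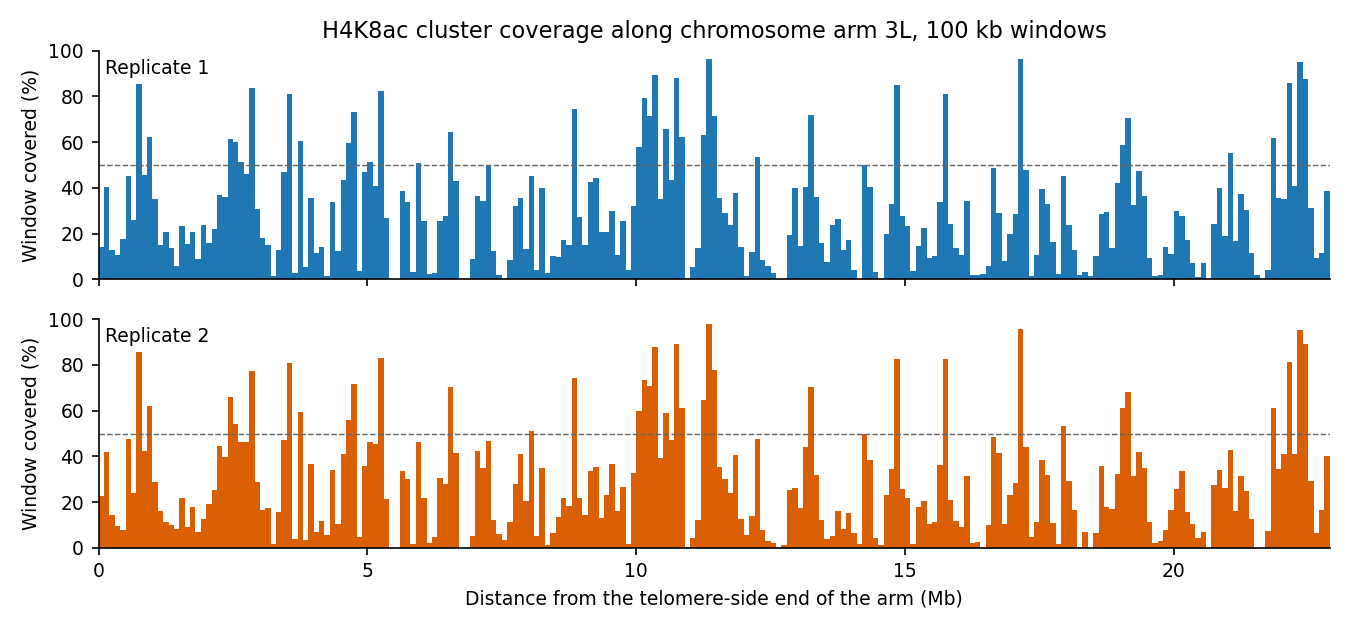
Share of each 100 kb window covered by H4K8ac clusters (bars, %) against the distance from the telomere-side end of arm 3L (Mb), for replicate 1 (upper panel) and replicate 2 (lower panel). The dashed line marks 50%, which 39 windows reached in replicate 1 and 34 in replicate 2, and tall and low windows stand at the same places in both panels.

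Dense windows occurred along the whole arm, and most of their runs were a single window long, but they were not evenly scattered. The 34 dense windows formed 24 runs, of which 17 were a single window, 5 were 2 windows, 1 was 3 windows and 1 was 4 windows long. The runs of 3 and 4 windows, a run of 2 windows and a single window lay close together, in the most covered stretch described below. By segments of 5 Mb from the telomere side, coverage was 30.8% ± 0.838, 24.9% ± 0.0639, 32.7% ± 0.652 and 23.5% ± 0.0364, and it was 29.6% ± 0.191 in the remaining part from 20000 kb on (SD, n = 2). There was thus no steady rise or fall toward the centromere. Coverage of neighbouring windows was only loosely related, with a Pearson's r of 0.37 in replicate 1 and 0.39 in replicate 2 across 228 pairs. It was 0.14 in both replicates for windows 2 apart and -0.006 and -0.004 for windows 5 apart, all within single libraries and given as a description.

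Coverage changed by at least 50 percentage points in the same direction in each replicate at 14 of the 228 borders between neighbouring windows. The steepest lay at 3600 kb, where the window before the border was covered to 81.1% and 80.8% and the window after it to 2.85% and 3.65%. At 4800 kb coverage fell from 73.2% and 71.8% to 3.48% and 4.78%. Around 17100 kb the order was the opposite, with 28.5% and 28.2% before the border and 96.6% and 95.8% after it. These borders were picked for their size among the 228.

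The stretch from 10000 to 11500 kb was the most covered place of its size on the arm. It was covered to 56.2% in replicate 1 and 56.3% in replicate 2, against 26.5% and 25.9% of the rest of the arm. With 6.55% of the length it held 13.0% and 13.2% of the arm's clustered bases, and 23 of the 114 and 21 of the 113 clusters of at least 10 kb touched it. The next most covered 15 windows in a row that did not overlap it, from 2100 to 3600 kb, reached 40.4% ± 0.167, and the least covered, from 19500 to 21000 kb, reached 14.5% ± 0.636 (SD, n = 2). Clusters touching the stretch had median lengths of 3502 and 3053.5 bp, against 2188.5 and 2081 bp elsewhere on the arm. Their median scores, read as log2, were 0.72 and 0.70, against 0.63 and 0.62. The stretch was set with earlier results of these data known, so its rank and these contrasts are a description.

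The stretch was not a single block, since a nearly bare interval split it. From 10000 to 10900 kb coverage was 65.9% and 65.3%, from 10900 to 11200 kb it was 6.46% and 5.59%, and from 11200 to 11500 kb it was 76.9% and 80.1%. The window from 10900 to 11000 kb held 0% in replicate 1 and 0.240% in replicate 2. It followed directly on a window covered to 62.5% and 61.3%. The 4 windows from 10000 to 10400 kb and the 3 windows from 11200 to 11500 kb were the arm's only runs of more than 2 dense windows, at 73.7% ± 1.16 and 78.5% ± 2.23 (SD, n = 2). Between them stood a lower window at 10400 to 10500 kb, with 35.1% and 39.4%, and another at 10600 to 10700 kb, with 43.4% and 47.0%.

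Dense windows of the stretch were built from clusters of different sizes. The window from 10100 to 10200 kb held the midpoints of 18 clusters in replicate 1 and 25 in replicate 2, which together with clusters reaching in from its neighbours covered 79.5% and 73.3% of it. The window from 11300 to 11400 kb, the most covered of the arm, held 6 and 3 midpoints and was covered to 96.2% and 98.0%. The longest cluster in the stretch measured 35.4 kb in replicate 1, at 10764110 to 10799490 with a score of 0.91. In replicate 2 it measured 66.8 kb, at 11325127 to 11391967 with a score of 0.97.

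**Figure D2:**
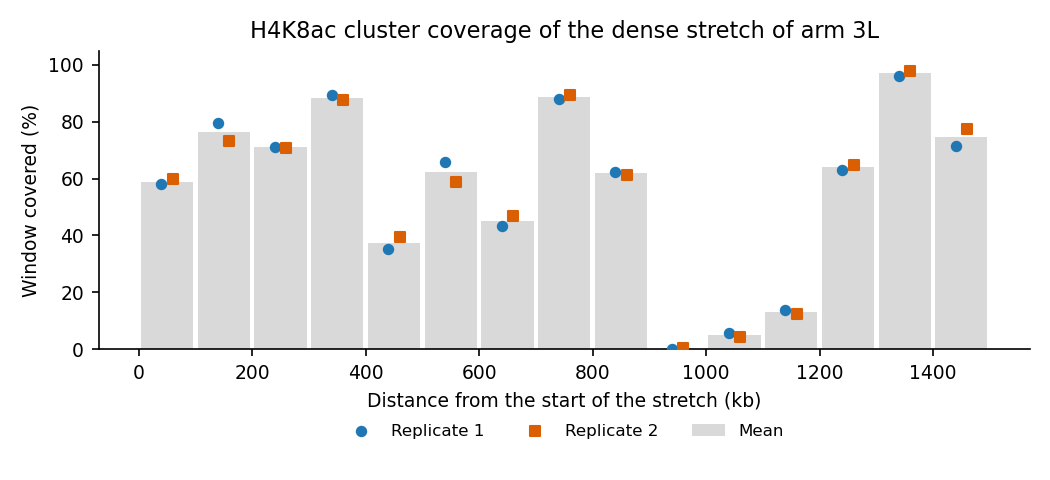
Share of each 100 kb window covered by clusters (%) across the 15 windows from 10000 to 11500 kb, against the distance from the start of the stretch (kb); grey bars are means, circles replicate 1 and squares replicate 2. The 3 windows before 11200 kb lie at or below 13.8% in both replicates, and the windows on either side of them at 61.3% or more.

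Input densities inferred from the scores of selected clusters were alike in the stretch and elsewhere on the arm in replicate 1. They were somewhat lower in the stretch in replicate 2 and the combined set. The scores could be read as log2 of a ratio of ChIP to input counts, multiplied by a constant for each list, and the input count per kb was taken from that ratio. It was 90.5 in the stretch and 90.7 outside it in replicate 1, and 94.8 and 100.9 in replicate 2. In dense windows it was 90.7 and in all other windows 90.5 in replicate 1, and 100.6 and 100.2 in replicate 2. In the combined set it was lower in the stretch, with 181.5 against 190.9 outside it, and lower in dense windows, with 183.5 against 192.2. These densities are medians over listed clusters of at least 2000 bp alone. Clusters with low inferred counts per kb in their group were set aside, which can hide a difference in input between places. In the stretch and outside it, 66 and 546 clusters remained in replicate 1, and 63 and 500 in replicate 2. In the combined set 43 and 598 remained. The densities say nothing of windows without clusters.

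Of the combined clusters on the arm, 597 were covered to at least 50% by the clusters of each replicate, and the longest of them are described here. Since the combined set was made from these replicates, their coverage of it is not independent of it. The longest spanned 130.1 kb at 11325022 to 11455091, inside the dense stretch, with a score of 0.90. Replicate 1 covered 92.9% of it in 10 clusters, and replicate 2 covered 97.6% in 4. Next came 99.9 kb at 22301130 to 22401045, covered to 95.4% in 2 clusters and to 95.9% in 5. A separate domain of 58.6 kb at 22401715 to 22460297 began less than 1 kb further on, and 73.9 kb at 22161446 to 22235363 lay before it. The windows from 22300 to 22500 kb, the last dense run examined before the centromere, were covered to 91.9% ± 0.591 (SD, n = 2). The others among the 10 longest measured 90.6 kb at 19136947, 87.8 kb at 5177896, 81.2 kb at 3515472, 77.1 kb at 749712, 70.9 kb at 9983101 and 63.3 kb at 10219031. Scores of the 10 ran from 0.75 to 1.20.

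The domain at 749712 to 826824 stood out by score as well as by length. It had the highest score of the 597, at 1.20, or 2.30-fold over input if the score is read as log2. Replicate 2 listed it as a single cluster of 76.4 kb with a score of 1.24. Replicate 1 listed 2 clusters there, the larger of 65.1 kb with a score of 1.22, and covered 98.5% of it. In each replicate its main cluster was at once the longest and the highest-scoring listed cluster of the arm. The rank by length depends on where the lists cut covered stretches. In the combined set the domain had rank 6 by length, and after merging clusters less than 500 bp apart the longest lay elsewhere in each replicate. The next highest score in a replicate was 1.16, in replicate 1, for a cluster of 7.71 kb at 882274 to 889985. Replicate 2 covered 93.3% of that cluster, but with a highest score of 0.89.

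High scores were otherwise found in domains of very different length. Of the 10 highest-scoring domains covered in each replicate, 2 were also among the 10 longest, the one at 749712 and the one of 63.3 kb at 10219031 with a score of 1.01. The second highest was an 11.8 kb domain at 22826518 to 22838367, close to the border of the part of the arm examined, which scored 1.07 in the combined set. It was a single cluster in each replicate, with scores of 1.06 and 1.10. It was followed by 31.4 kb at 17913402 to 17944779 with 1.04 and 42.1 kb at 21873852 to 21915975 with 1.04. Short ones among the 10 lay at 9050652 to 9061400 (10.7 kb, 1.00) and at 118698 to 129692 (11.0 kb, 0.98). The remaining domains, at 10357251, 17086522 and 2412048, scored between 0.95 and 0.98. The one at 17086522 to 17140618, 54.1 kb long, was 1 cluster in replicate 1 and 2 in replicate 2, and its window from 17100 to 17200 kb was the second most covered of the arm, at 96.6% and 95.8%.

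The highest score of all on the arm belonged to a cluster that neither replicate listed. The combined set gave 3.17 to a cluster of 1083 bp at 5105517 to 5106599, shorter than the 1301 bp of the shortest cluster in either replicate list. Its score corresponded to whole numbers of 8 for ChIP and 1 for input, the smallest that give this ratio, and the counts themselves can be larger by a shared factor.

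Long domains of the combined set were often broken up in the replicates. The combined set held 195 clusters of at least 10 kb, of which 184 were covered to at least 50% in each replicate and 11 were not. A median of 3 clusters of each replicate overlapped such a domain, with at most 12 in replicate 1 and 11 in replicate 2. In 15 of the 195 domains each replicate had exactly 1 cluster. Replicate 1 had more pieces than replicate 2 in 70 domains, fewer in 54 and as many in 71. Pieces could lie almost end to end, since 110 gaps in replicate 1 and 95 in replicate 2 were under 100 bp. When clusters less than 500 bp apart were merged, the number of domains of at least 10 kb rose from 114 and 113 to 140 and 144. The longest was then 88.8 kb at 22129133 to 22217957 in replicate 1 and 78.5 kb at 19137307 to 19215772 in replicate 2. Lengths and numbers of domains on this arm therefore depend on where the lists cut a covered stretch.

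Long stretches free of clusters lay between acetylated regions. Windows without a clustered base in either replicate numbered 7 of the 229, or 3.06%. They were the 2 windows from 5400 to 5600 kb, the 2 from 6700 to 6900 kb, and single windows starting at 12600, 20600 and 21600 kb. The longest stretch free of both replicates measured 274.3 kb, at 12518618 to 12792878. It lay in a run of 4 sparse windows from 12400 to 12800 kb, the longest such run, covered to 2.16% and 1.55%. The next longest measured 252.7 kb at 6696233 to 6948962, 237.5 kb at 21510712 to 21748223, 220.0 kb at 5381669 to 5601647 and 207.3 kb at 20507373 to 20714702. The other 5 of the 10 longest were between 115.4 and 126.9 kb. In all, 15 such stretches of at least 100 kb made up 10.2% of the arm, and 70 of at least 50 kb made up 27.4%.

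Within these 10 stretches the combined set listed few clusters, none of them among its highest-scoring. It covered between 0.960% and 7.02% of each, with 1 to 7 clusters, and none scored above 0.51. Over all combined clusters of the arm the median score was 0.43 and the upper quartile 0.51. Mappability was not examined and the lists carry no read totals, so an empty stretch is a statement on listed clusters and not on the absence of the mark.

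Clusters sat close together within acetylated regions, with wide gaps between the regions. The median gap between neighbouring clusters was 2073 bp in replicate 1 and 2048 bp in replicate 2. Gaps under 1000 bp made up 34.1% and 32.7%. At the other end, 82 and 78 gaps of at least 50 kb took up 33.9% and 32.5% of the arm, and the longest measured 306.7 and 328.3 kb. The combined set, with more clusters, had a median gap of 1398.5 bp and 39 gaps of at least 50 kb.

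**Figure D3:**
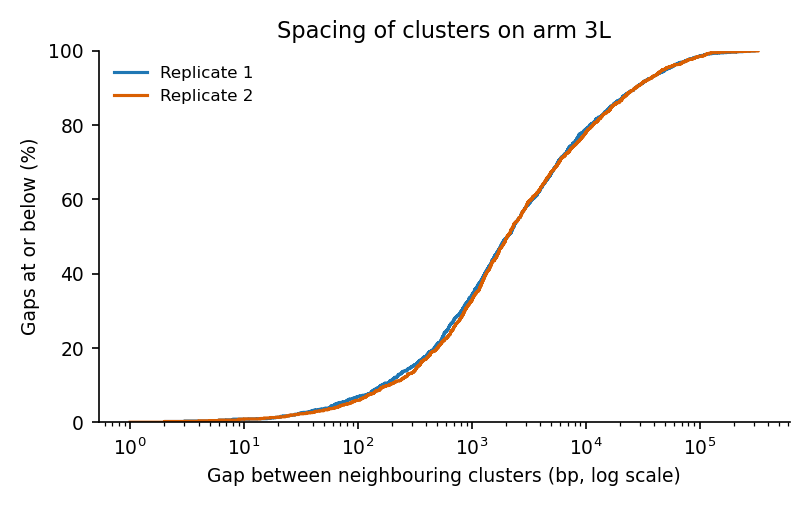
Cumulative share of gaps between neighbouring 3L clusters (%) against gap length (bp, log scale; a gap of 0 is drawn at 1) for replicate 1 and replicate 2. The curves of the replicates nearly coincide, with medians of 2073 and 2048 bp and a tail that ends at 306.7 and 328.3 kb.

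Most clusters of the arm were short, while those of at least 10 kb, few in number, held more of the clustered bases than any other of the 4 length classes. Median lengths were 2232 and 2114 bp. Clusters under 2 kb made up 40.9% and 44.2% of the lists but only 15.7% and 17.5% of the clustered bases. Those of at least 10 kb were 7.19% and 7.08% of the clusters and held 34.5% and 35.7% of the bases. Clusters of at least 20 kb numbered 32 and 38, and those of at least 50 kb numbered 3 and 5.

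Longer clusters also scored higher. Median scores were 0.55 and 0.53 under 2 kb, 0.67 and 0.66 from 2 to 5 kb, 0.77 and 0.75 from 5 to 10 kb, and 0.88 and 0.85 from 10 kb on, always replicate 1 first. Spearman's rho of length and score was 0.732 across the 1586 clusters of replicate 1 and 0.753 across the 1596 of replicate 2. Clusters of a list share a library and its depth, so no p is given. Over all clusters of the arm, replicate 1 had a median score of 0.64 (1.56-fold) and replicate 2 one of 0.62 (1.54-fold).

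Clusters in dense windows were longer than in the others, while median scores of clusters of like length differed by about 0.05 or less. Median lengths were 3752 and 3063 bp in dense windows, 2078 and 2053 bp in windows of 5 to 50% and 1754 and 1502.5 bp in sparse windows. Among clusters under 2 kb the median score was 0.54 in dense windows and 0.55 in all others in replicate 1, and 0.54 against 0.53 in replicate 2. From 2 to 5 kb it was 0.68 against 0.67 and 0.68 against 0.66. Among clusters of at least 10 kb it was 0.90 against 0.85 and 0.87 against 0.83. Windows were classed by the coverage of these same clusters, which favours long ones in dense windows, so these lengths are a description.

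**Figure D4:**
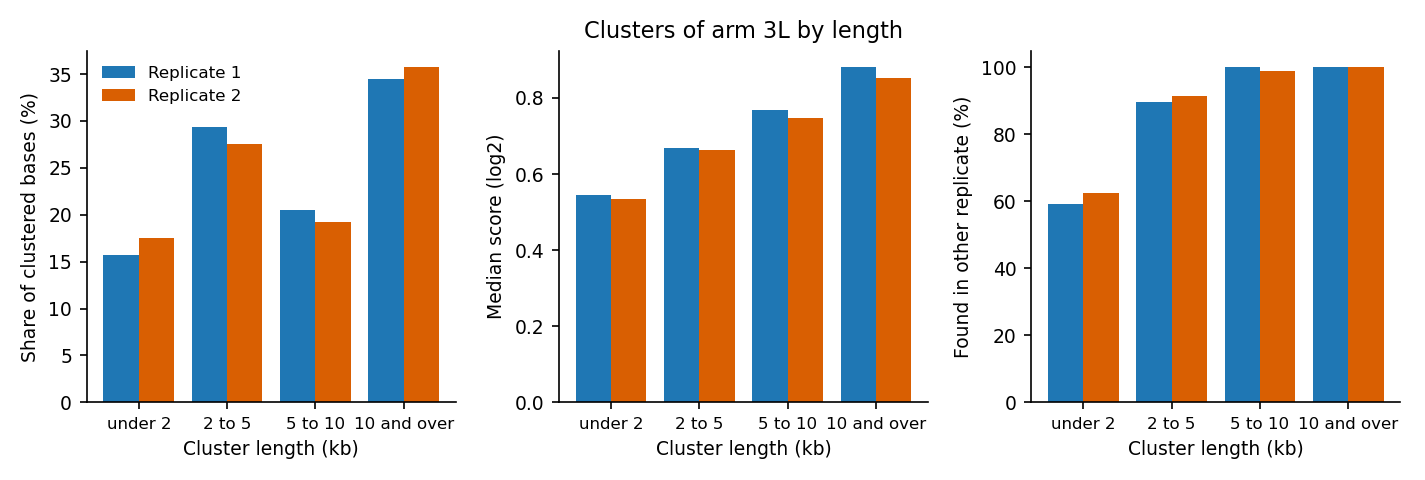
Clusters of arm 3L in 4 classes of length (kb), with the share of clustered bases (left, %), the median score (middle, log2) and the share of clusters overlapped by a cluster of the other replicate (right, %) for replicate 1 and replicate 2. All 3 quantities are higher from 10 kb on than under 2 kb in both replicates, for example a median score of 0.88 and 0.85 against 0.55 and 0.53.

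The replicates laid out the arm in nearly the same way. Across the 229 windows their coverage had a Pearson's r of 0.984 and a Spearman's rho of 0.974, given as a description of libraries made from the same kind of sample. The median difference was 2.34 percentage points, and 9 windows differed by at least 10 points. Coverage was higher in replicate 1 in 119 windows, higher in replicate 2 in 103 and equal in 7. The largest difference, 18.8 points, was in the window from 13600 to 13700 kb, with 23.8% in 11 clusters in replicate 1 and 5.02% in 3 clusters in replicate 2. The median scores of those clusters were both 0.67, and the combined set covered 44.4% of the window. Of the windows with at least 50% coverage in a replicate, 32 reached it in both and 9 in 1 alone.

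**Figure D5:**
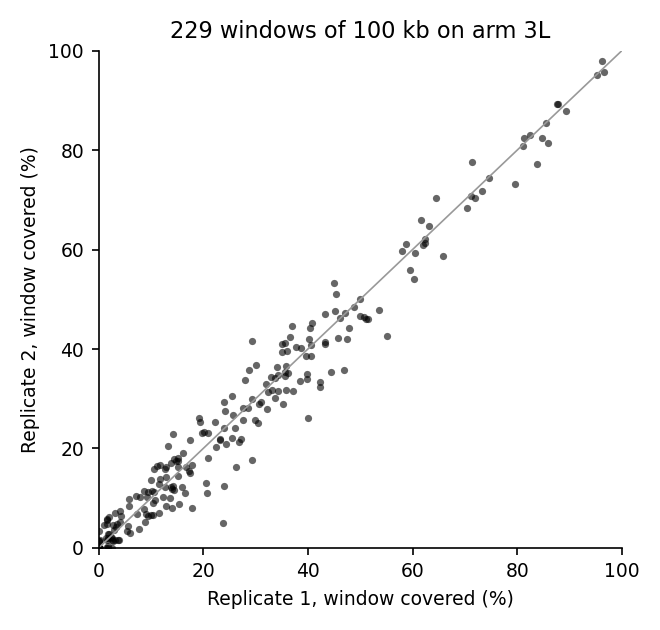
Coverage of each of 229 windows of 100 kb on arm 3L in replicate 2 (%) against replicate 1 (%), with 1 point per window and the line of equal coverage. Points follow the line over the whole range, with a median difference of 2.34 percentage points and a largest one of 18.8.

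At the level of single clusters agreement was lower and rose with length. In replicate 1, 1258 clusters touched a replicate 2 cluster in at least 1 bp, which was 79.3% (exact binomial 95% interval 77.2 to 81.3), against 77.7% over the whole series. In the other direction 1279 did so (80.1%, interval 78.1 to 82.1), against 80.8% over the whole series. The arm thus lay near the whole series, which includes it. The intervals cover counting error alone and treat clusters as independent, though neighbouring clusters can be pieces of 1 domain. Under 2 kb, 59.3% and 62.4% were found again, from 2 to 5 kb 89.8% and 91.6%, and from 5 to 10 kb 100% and 98.9%. Each of the 114 and 113 clusters of at least 10 kb was found again. A longer cluster has more bases with which to touch another, and what the 1 bp rule adds to these shares was not tested.

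Clusters listed in a single replicate were shorter and scored lower than those found again. Clusters not found again had median lengths of 1555.5 and 1551 bp, against 2824 and 2522 bp for those found again. Their median scores were 0.57 and 0.56, against 0.66 and 0.64. All clusters under 2 kb, found again or not, had median scores of 0.55 and 0.53, so a low score was not shown apart from short length. The longest cluster not found again measured 4354 bp in replicate 1 and 6701 bp in replicate 2. Of the 328 and 317 clusters not found again, 99 and 107 lay less than 1000 bp from a cluster of the other replicate. The median distance to the nearest such cluster was 2021.5 and 1963 bp. Within the lists, the median gap between all neighbouring clusters was 2073 and 2048 bp, and 34.1% and 32.7% of gaps were under 1000 bp. Nearness was thus not shown to be particular to the clusters not found again. All but 3 of those clusters in each replicate overlapped a combined cluster, namely 325 and 314. In sparse windows 51.2% of 41 and 40.4% of 52 clusters were found again, against 93.0% of 343 and 92.6% of 349 in dense windows, where a cluster also meets more covered bases.

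Edges of matching clusters lay close to each other. In 679 pairs each cluster overlapped exactly 1 cluster of the other replicate. Their starts lay a median of 290 bp apart and their ends 268 bp, with upper quartiles of 654 and 660.5 bp. Both edges agreed to 500 bp in 323 pairs, or 47.6%. Scores of the pairs had a Spearman's rho of 0.614 and a Pearson's r of 0.672, and replicate 1 scores exceeded replicate 2 scores by a median of 0.015 with an SD of 0.110. Differences in score of about 0.1 between single clusters are thus within the spread of the replicates. In bases, the replicates shared 5.21 Mb of a union of 7.69 Mb, which was 80.0% of the replicate 1 and 81.4% of the replicate 2 bases.

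The combined set covered more of the arm, with more clusters. It covered 42.5% of the arm, and 87 of the 229 windows reached 50%, while 2 windows held no combined cluster. The added coverage was uneven. The window from 15400 to 15500 kb, chosen after its values were seen, was covered to 9.30% and 10.3% in the replicates and to 51.4% in the combined set. Of its 2077 clusters, 788 (37.9%, against 38.5% over the whole series) overlapped a cluster in each replicate, 498 in 1 replicate and 791 in neither. The 788 were long, with a median of 5267 bp, and made up 76.6% of the combined bases. The 791 were short, with a median of 1275 bp, and 419 of them were shorter than any cluster in the replicate lists. Their median score was 0.39, near the 0.38 of all combined clusters under 2 kb.

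Arm 3L was close to arms 2L and 3R in total coverage and median score and lay apart from one or the other in several measures of layout. Arm 2L was taken up to 22000 kb and 3R in full. Coverage was 28.2% ± 0.356 on 3L, 27.5% ± 0.769 on 2L and 29.4% ± 1.06 on 3R (SD, n = 2). Clusters per Mb numbered 69.5 ± 0.309 on 3L, below the 74.7 ± 1.16 of 2L and the 74.2 ± 1.19 of 3R in both replicates. Median scores of 0.63 ± 0.01, 0.63 ± 0.01 and 0.64 ± 0.01 did not differ beyond the SD. Long domains, of at least 10 kb, numbered 4.96 ± 0.0309 per Mb on 3L and 5.07 ± 0.431 on 3R, and fewer on 2L, with 4.23 ± 0.129. Coverage of the windows had an SD among windows of 23.8 ± 0.152 percentage points on 3L, 21.7 ± 0.207 on 2L and 22.87 ± 0.737 on 3R. Windows under 5% made up 17.2% ± 0.926 of 3L, 19.1% ± 0.643 of 2L and 15.8% of 3R in each replicate. Pearson's r of neighbouring windows was 0.376 ± 0.0152 on 3L, 0.338 ± 0.0177 on 2L and 0.311 ± 0.00336 on 3R, as a description. Dense windows, by single replicate, made up 15.9% ± 1.54 of 3L, 17.3% ± 1.93 of 2L and 19.2% ± 1.27 of 3R. The most covered 15 windows in a row reached 56.2% ± 0.0676 on 3L, 43.6% ± 4.31 on 2L and 49.2% ± 3.92 on 3R (SD, n = 2). None of these differences was tested, and none is shown to be particular to 3L.

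Toward the limit at 22900 kb coverage was uneven. From 22000 to 22900 kb clusters covered 48.6% ± 0.377 (SD, n = 2), and from 0 to 1000 kb, at the telomere side, 36.0% ± 0.139. The high value came mainly from the dense windows between 22100 and 22500 kb. The 4 windows after them were covered to 30.2% ± 1.29, 7.88% ± 2.18, 14.1% ± 3.44 and 39.4% ± 1.15 (SD, n = 2).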

How the data were processed

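H4K8ac enrichment over input was deposited as 3 region lists, 1 per ChIP replicate and 1 for the combined replicate set, with FlyBase release 5 coordinates, per the file headers. The submitters' processing notes name Bowtie 0.12.7. For the region caller, its threshold and the making of the combined set, settings were not given in the sources used here. Each region has 1 score deposited by the authors, which was read as log2. Raised from base 2, it gave whole-number ratios to the most frequent score for 100% of clusters in either replicate and 99.8% in the combined set (relative tolerance 1e-13, largest denominator 50000). With base e or 10 this held for at most 0.871%. Read depth is unknown.

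The arm, its limit and the measures were chosen with earlier results of these data known. Named were the 10 longest and the 10 highest-scoring combined clusters covered to at least 50% by each replicate, the 10 longest free stretches, runs of dense or empty windows, windows from 10000 to 11500 kb and the top clusters of each list. Steep borders, the window of largest difference, merged domains and single dense or low windows were added after their values were seen. Alternatives varied the score, length, windows, overlap, merging, replicates and list. Intervals are exact Clopper-Pearson. The functions were tested on simulated clusters. Python 3.11.15, numpy 2.4.6 and scipy 1.17.1 were used.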

Additional observations from a re-analysis of the deposited data

Results flagged for a closer look

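Clusters of the 3L sequence beyond 22900 kb, next to the centromere, lay outside the measurements above. Replicate 1 listed 9 clusters in these 1.64 Mb and replicate 2 listed 10, or 5.48 and 6.08 per Mb, against 69.3 and 69.7 per Mb up to this limit. Their median scores were 0.63 and 0.56, and the last of them ended at 23144367 and 23143563. All thus lay at the near end of this sequence, and the rates per Mb average over a remainder without clusters. Mappability there was not examined. The input libraries have no list here to set them against.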

How the results depend on the processing

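Of 55 alternative values of 9 results, 28 stayed within the tolerance (1 SD of the replicates, 1.5 times for shares of windows and numbers of domains, 0.05 for the correlation), among them all 6 of the correlation of windows (0.974 to 0.987). Where the tolerance was 1 SD, leaving out 1 of 2 replicates moves a mean by less than that whatever the data. Those values say nothing of stability. Of all 14 values with a replicate left out, 13 stayed. The share of empty windows without replicate 2 moved, from 3.06% to 4.80%. Coverage of the arm was 21.4% with the upper 50% by score, 23.5% with clusters of at least 2000 bp, 26.4% over the whole 3L sequence and 42.5% in the combined set. In the same order and without the whole sequence, the stretch from 10000 to 11500 kb was covered to 50.5%, 52.3% and 68.4%. Dense windows made up 24.9% at a threshold of 40% and 38.0% in the combined set. Empty windows made up 11.8% with the upper 50% by score, 10.0% with clusters of at least 2000 bp, 11.8% of windows of 50 kb, 0.877% of windows of 200 kb, 8.57% of the whole sequence, 0.873% in the combined set, and 4.37% and 4.80% in single replicates. The share found in the other replicate was 72.8% with the upper 50% by score, 81.8% with clusters of at least 2000 bp and 54.6% with 50% reciprocal overlap. For score and length both lists were cut before matching, so a cluster whose partner fell below the cut counted as not found. These shares therefore do not show that high-scoring or longer clusters agreed less. The median gap was 4507.75 bp with the upper 50% by score, 3281 bp with clusters of at least 2000 bp, 3444.75 bp after merging under 500 bp and 1398.5 bp in the combined set. Clusters of at least 20 kb numbered 35 on average, and the combined set held 195 of at least 10 kb. The median score was 0.70 with clusters of at least 2000 bp and 0.43 in the combined set. By construction these alternatives change which clusters enter, the window, the threshold, the length of sequence or the overlap rule, and other causes were not tested. With 2 replicates an SD rests on 1 difference, and unknown read depth limits what an empty window shows. No paired analysis was possible because the input libraries have no list here to pair with the ChIP libraries. Differences between places or arms within a library were not tested.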
